A study of Mus musculus with 6 samples.

Results

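Keratins of simple epithelium and of airway basal cells were examined in whole lung of mouse fetuses at E18.5, close to birth. The genes were Krt7, Krt8, Krt18 and Krt19 of simple epithelium and Krt5, Krt14, Krt15 and Krt17 of basal cells, 8 of the 18193 genes named on the array. They were read by 13 of the 34945 probe sets that the array annotation gives a single gene symbol. The family was chosen by its known roles together with the measured values of Krt15, whose signal had been seen to vary in this same comparison. Krt15 is therefore described without a test, 4 of the other genes are given with tests from the fit over all genes tested, and the remaining 3, which were dim, with tests from a fit of all named probe sets.

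The comparison set 3 Scap_ko arrays, from lungs in which Scap had been deleted in respiratory epithelial cells, against 3 Scap_control arrays. Both groups shared a mixed FVB/N and B6 background, the age of E18.5 and the MOE430 V2 array. Scap is the escort protein that SREBP transcription factors need to leave the endoplasmic reticulum and switch on lipid synthesis genes. The series title places the deletion in alveolar type II cells; the promoter that drove it, the alleles of the controls and whether an array stands for 1 animal or a pool are not given in the sources used here. Nothing in the labels says that arrays come from separate animals, so each p-value measures only how far these arrays differ, and that spread may be technical. RNA came from whole lung, where fewer cells of a type and less RNA per cell cannot be told apart, and Scap itself overlapped between the groups, at 1847, 3286 and 2702 signal units on Scap_ko arrays 1 to 3, against 7264, 4195 and 3080 on Scap_control arrays 1 to 3. The median signal of an array lay between 490.9 and 530.5 units, and a probe set whose geometric mean over the 6 arrays fell below 497.8, the median of all probe sets, is called dim here.

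Keratins are the intermediate filament proteins of epithelial cells and assemble as pairs of an acidic type I and a basic type II chain. Krt8 and Krt18 form the main pair of simple epithelia, with Krt7 and Krt19 added in ducts, airways and alveoli. Krt5 and Krt14 form the pair of basal cells, the stem cells of the trachea and large airways, where Krt15 and Krt17 are further type I chains. In the RefSeq gene table of GRCm38.p6 the type I genes Krt15, Krt19, Krt14 and Krt17 lie on chromosome 11, and the type II genes Krt7, Krt5 and Krt8 lie on chromosome 15 together with the type I gene Krt18. Krt15 and Krt19 are next to each other, with 0 protein-coding genes between them, and so are Krt8 and Krt18.

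The upstream bases of a basal and a simple type II keratin are shown as a description. They were picked because Krt5 read lower on each Scap_ko array than on the control array of its number, whereas Krt7 did not. How many of all genes do so was not counted. Krt5 was dim, its groups overlapped and it was not called, and a link between these bases and the signals was not tested. Of the 8 genes, 5 had a promoter entry in the RefSeq table of GRCm38.p6: Krt5, Krt7, Krt8, Krt14 and Krt18. The Krt5 bases lie at chr15:101712906-101713155 on the minus strand and the Krt7 bases at chr15:101412153-101412402 on the plus strand, each 250 bases that end just before the annotated start. Capitals mark ATAAAAGG, a TATA-like motif, in Krt5 and GGGCGG, the GC box, on either strand in Krt7.
Krt5: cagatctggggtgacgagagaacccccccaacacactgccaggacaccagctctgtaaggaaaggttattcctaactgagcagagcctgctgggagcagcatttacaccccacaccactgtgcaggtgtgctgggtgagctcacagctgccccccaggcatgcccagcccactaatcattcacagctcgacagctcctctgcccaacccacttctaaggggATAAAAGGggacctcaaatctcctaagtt
Krt7: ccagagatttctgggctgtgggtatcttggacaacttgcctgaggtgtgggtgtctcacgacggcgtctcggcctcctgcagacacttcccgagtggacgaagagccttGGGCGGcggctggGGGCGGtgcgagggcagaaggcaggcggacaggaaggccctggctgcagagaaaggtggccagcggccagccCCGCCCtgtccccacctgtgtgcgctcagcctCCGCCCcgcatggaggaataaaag
The TATA-like motif of Krt5 began 29 bases before the start, and Krt7 held the GC box at 4 places. Over the whole 300-base windows of the table and on both strands, ATAAAAGG was in 1.76% and GGGCGG in 35.7% of 32851 windows. ATAAAAGG was in 2 of the 5 keratin windows, those of Krt5 and Krt7, where in Krt7 it spans the start and is not capitalised. TATAAA, which may overlap it, was in 13.6% of all windows and in that of Krt8 alone among the 5. In Krt8 it spans the start on either strand, unlike the Krt5 motif. The letters TCACNCCAC, the core of the sterol regulatory element that SREBPs bind, were in 1.24% of all windows and in 0 of the 5 keratin windows, which says only that these letters are not within this distance.

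The simple-epithelium keratins read nearly the same in both groups. Krt8, the type II chain of the simple pair, had signals of 19547, 20537 and 21003 on Scap_ko arrays 1 to 3, against 20843, 19102 and 19329 on Scap_control arrays 1 to 3. These readings interleaved, and the highest was 1.10 times the lowest. Krt8 averaged 20362 ± 744 on Scap_ko and 19758 ± 947 on Scap_control arrays (SD, n = 3 arrays each), a log2 difference of 0.04 (standard error, SE, 0.09; limma adjusted p = 0.977). The interval of the Krt8 ratio ran from 89.1% to 119.2% of control at 95% confidence.

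Of the other Krt8 probe sets, 1435989_x_at stood at 106.7% and 1423691_x_at at 104.7% of control, both with overlapping groups. The suffix _x_at marks probe sets that may also bind related transcripts. Against all genes tested, Krt8 was among the steadier ones: 6.45% had a smaller pooled within-group SD than its 0.06 on the log2 scale.

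Krt18, the type I partner of Krt8, read 15981, 15838 and 18723 on Scap_ko arrays 1 to 3, against 16174, 14486 and 14199 on Scap_control arrays 1 to 3. Scap_ko array 3 was the highest for Krt18, as it was for Krt8, and the other Scap_ko arrays lay within the control range. The log2 difference was 0.17 (SE 0.11, adjusted p = 0.897), or 112.5% of control with an interval of 94.3% to 134.2%, and 0.09 on the log2 scale without Scap_ko replicate 3. This was the widest difference among the 4 simple-epithelium genes, and 73.6% of genes tested had a smaller one in size.

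Krt7, a type II chain of glandular and alveolar epithelium, read 12929, 13425 and 11122 on Scap_ko arrays 1 to 3, against 11954, 12005 and 11841 on Scap_control arrays 1 to 3. The control arrays lay within a narrow band, and the Scap_ko arrays lay on both sides of it, with array 3 the lowest of all 6. The Krt7 log2 difference was 0.06 (SE 0.10, adjusted p = 0.971), 104.3% of control with an interval of 88.4% to 123.1%. It was 0.03 without Scap_ko replicate 1, 0.01 without Scap_ko replicate 2 and 0.14 without Scap_ko replicate 3.

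Krt19, the smallest type I keratin, read 14598, 15484 and 14141 on Scap_ko arrays 1 to 3, against 15771, 14087 and 13240 on Scap_control arrays 1 to 3. Every Scap_ko reading lay inside the control range. The difference was 0.04 on the log2 scale (SE 0.10, adjusted p = 0.985), 102.8% of control with an interval of 87.1% to 121.3%, and it turned to -0.017 without Scap_control replicate 3.

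**Figure D1:**
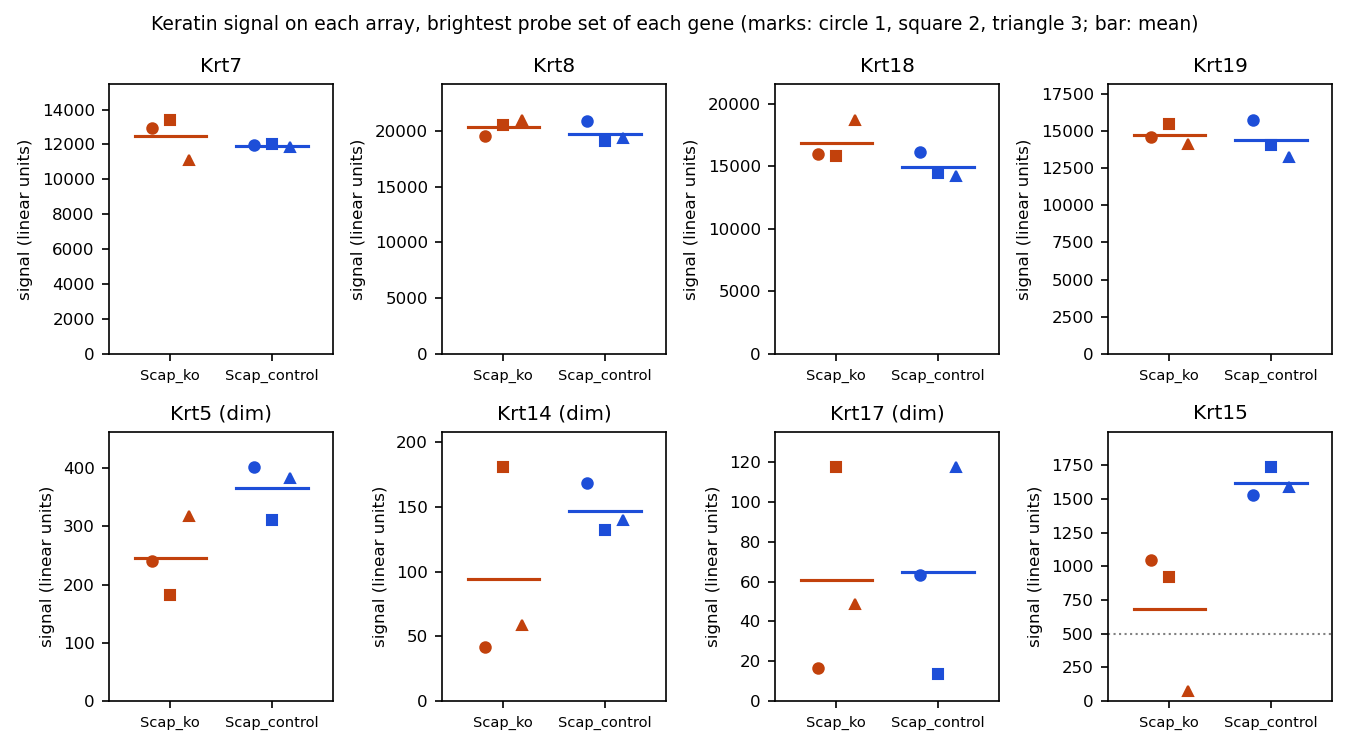
Signal in linear units (vertical axes from 0, each with its own scale) of the brightest probe set of each keratin on the 3 Scap_ko (left, orange) and 3 Scap_control arrays (right, blue); horizontal bars are group means and the dotted line in the Krt15 panel is the brightness limit of 497.8. The 4 simple-epithelium keratins overlap between groups, and Krt15 does not, with Scap_ko array 3 at 74.7.

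Krt15, a type I keratin of basal cells, read 1045, 920 and 74.7 on Scap_ko arrays 1 to 3, against 1530, 1738 and 1589 on Scap_control arrays 1 to 3. All Scap_ko readings were below all control readings, and Scap_ko array 3 was far below the rest and under the brightness limit. The control arrays were close together, with a mean of 1619 ± 107, whereas the Scap_ko arrays averaged 680 ± 528 (SD, n = 3 each). The log2 difference was -1.96, or 25.7% of control. Without Scap_ko replicate 3 it was -0.72, or 60.6% of control, and the remaining groups still did not overlap.

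Taken by array number, Scap_ko arrays 1, 2 and 3 stood at 68.3%, 52.9% and 4.70% of the control of the same number for Krt15. What a number stands for is not stated. Across the genes tested, groups did not overlap with Scap_ko lower in 5.72%; since Krt15 was chosen for its variation, nothing is read from its place among them.

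On Scap_ko array 3 Krt15 was at 7.60% of the mean of the other Scap_ko arrays, and since 74.7 is as dim as signals that cannot be told from background in these files, the size of that drop is not well measured. Krt15 had a single probe set, 1422667_at, so no second reading of the gene bears on that value, and the cause of that reading was not tested.

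The chromosomal neighbour of Krt15, Krt19, was at 94.0% of the mean of the other Scap_ko arrays on array 3. Krt18 on that array was at 117.7%, Krt8 at 104.8% and Krt7 at 84.4% of the other Scap_ko arrays. Of the dim keratins, Krt14 and Krt17, also on chromosome 11, were at 52.9% and 72.9%, and Krt5 was at 150.4%.

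**Figure D2:**
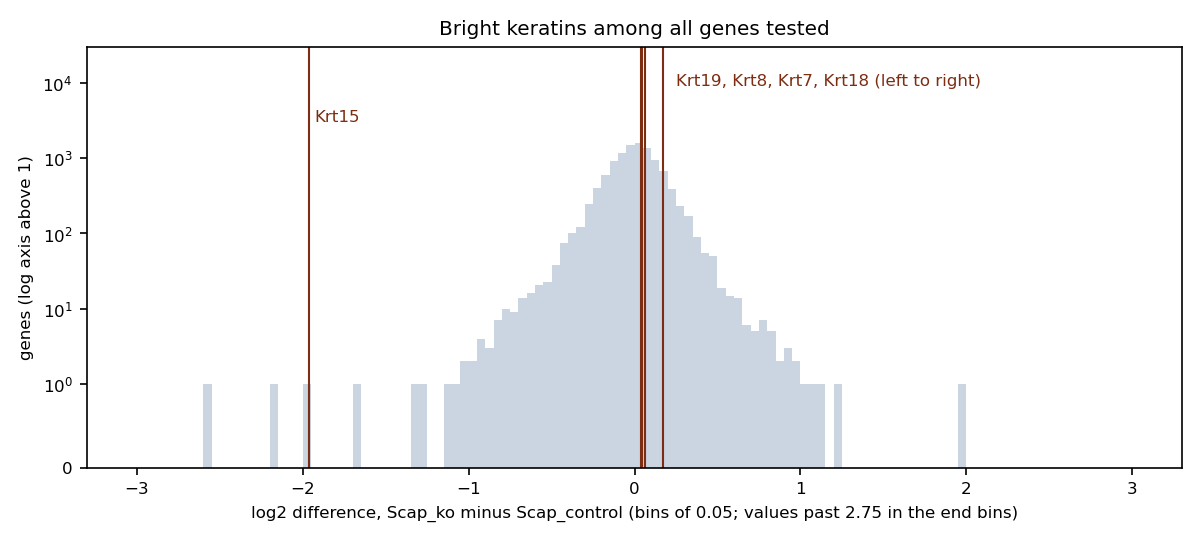
Histogram of the log2 difference, Scap_ko minus Scap_control, of the 10972 genes tested (horizontal axis, bins of 0.05; the vertical axis counts genes and is logarithmic above 1), with vertical lines at the 5 keratins above the brightness limit. Krt7, Krt8, Krt18 and Krt19 lie between 0.04 and 0.17, and Krt15 lies at -1.96.

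The remaining basal-cell keratins were dim on every array. Krt5, the type II chain of basal cells, read 240.4, 181.5 and 317.2 on Scap_ko arrays 1 to 3, against 402.3, 311.6 and 382.6 on Scap_control arrays 1 to 3. Only Scap_ko array 3 and Scap_control array 2 crossed over, and each Scap_ko array read lower than the control of its number, at 59.8%, 58.2% and 82.9% of it. The log2 difference was -0.60 (SE 0.24), or 66.1% of control, and did not pass in the fit of all named probe sets without a brightness filter (adjusted p = 0.921; unadjusted p = 0.0519). With the array number as a replicate block the unadjusted p was 0.0296 and the adjusted p 0.800. The Krt5 order of arrays differed from that of Krt15, since Scap_ko array 3 was the highest Scap_ko array for Krt5 and the lowest for Krt15.

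Krt14, the type I partner of Krt5, had 3 dim probe sets. The brightest, 1455573_at, read 42.1, 181.1 and 59.0 on Scap_ko arrays 1 to 3, against 168.3, 132.6 and 140.1 on Scap_control arrays 1 to 3. Scap_ko array 2 was the highest of all 6 and the other Scap_ko arrays were the lowest, so the groups overlapped (log2 difference -0.93, SE 0.56, adjusted p = 0.956). The difference was -0.50 without Scap_ko replicate 1 and -1.55 without Scap_ko replicate 2. The other Krt14 probe sets stood at 66.5% and 70.6% of control with signals between 12.5 and 110.5.

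Krt17, a keratin of basal and injured epithelium, had 2 dim probe sets that did not behave alike. The probe set 1423227_at read 16.7, 117.5 and 48.9 on Scap_ko arrays 1 to 3, against 63.4, 13.6 and 117.6 on Scap_control arrays 1 to 3, which is no ordering by group (log2 difference -0.03, SE 1.06). The probe set 1420193_at read 9.3, 19.1 and 14.9 on Scap_ko arrays, against 60.0, 14.0 and 62.5 on Scap_control arrays 1 to 3. Its groups overlapped through Scap_control array 2, with a log2 difference of -1.44 (SE 0.67, adjusted p = 0.941). A further dim probe set bears both the Krt14 and the Krt17 symbol and was left out of the 13. At this brightness a level cannot be told from background in these files, which hold no detection calls.

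**Figure D3:**
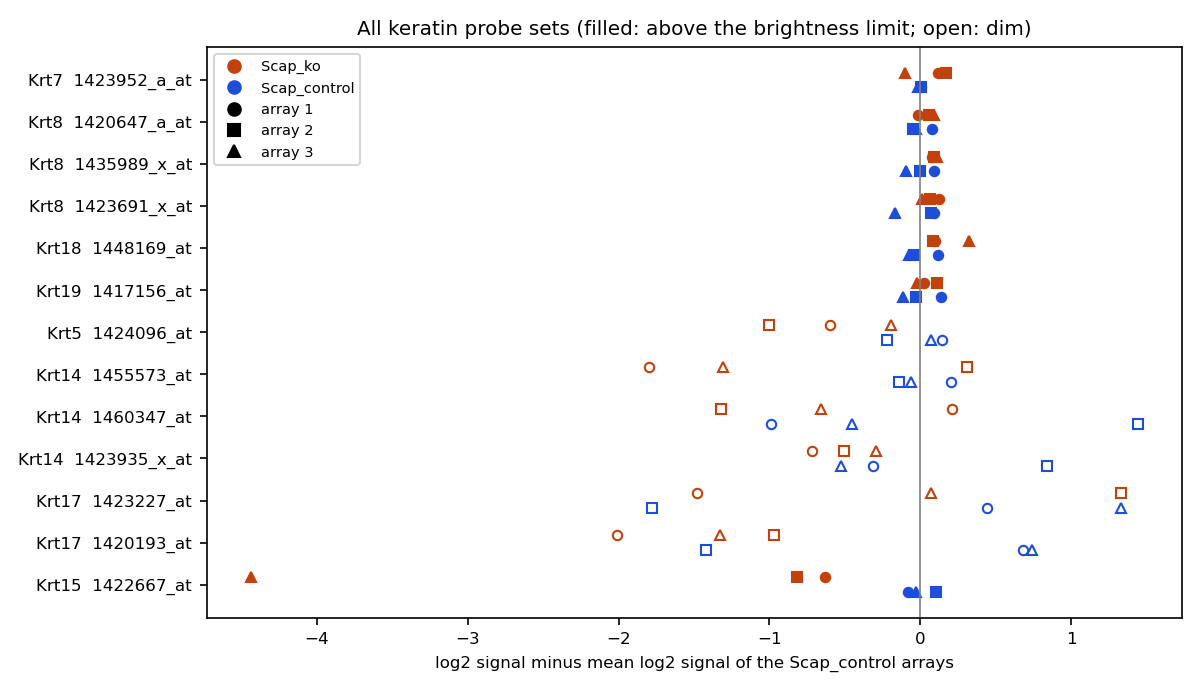
Log2 signal of all 13 keratin probe sets on each array minus the mean log2 signal of the Scap_control arrays (horizontal axis), with Scap_ko above Scap_control in each row, symbols for the array number, filled marks above the brightness limit and open marks for dim probe sets. The bright simple-keratin rows stay within a narrow band near 0, the dim rows scatter in both groups, and Krt15 on Scap_ko array 3 lies farthest left.

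In counts, 5 of the 8 genes were bright enough to be tested. Apart from Krt15, 0 of 4 were called at an adjusted p of 0.05 by limma, also 0 at an unadjusted p of 0.05. Of all 10972 genes tested, 316 reached that unadjusted level with a higher and 334 with a lower signal in Scap_ko lungs. The background of adjusted calls was 0.00911% of genes called, a single gene, Acox2, which is a peroxisomal oxidase named after its value was seen. In the fit of all named probe sets without a filter, 0 of the 12 probe sets other than that of Krt15 were called, where 0% of 34945 were. In that fit, which leaves out the array numbers, 0 had an unadjusted p under 0.05, where 1886 of all did. With the replicate block the limma unadjusted p of Krt5 was 0.0296. Of the 13 probe sets 7 were above the brightness limit and 6 dim, and 7 had a negative difference. Of the 5 genes tested, Krt15 was the one with a negative difference, and 48.3% of all genes tested had one.

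The other keratins of the array gave little signal. Of 40 further keratin genes, 36 were dim and 4 were tested, none of them called. Krt42, a type I keratin, read 4143, 3489 and 3203 on Scap_ko arrays 1 to 3, against 4034, 2407 and 3137 on Scap_control arrays 1 to 3, with overlapping groups (log2 difference 0.20, adjusted p = 0.932). Krt80, a type II keratin, read 1923, 1866 and 3261 on Scap_ko arrays 1 to 3, against 2245, 1762 and 3274 on Scap_control arrays 1 to 3. Array 3 was thus the highest for Krt80 in both groups. Krt81 stood at 96.5% and Krt10, a keratin of skin, at 100.4% of control.

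Genes that anchor keratin filaments were measured alongside. Of 18 such genes with a probe set 14 were tested and 0 called, with 7 positive and 7 negative differences and a median log2 difference of 0.03 (0.01 to 0.10 as single arrays were left out), beside 0.01 over all genes tested. Plakophilin 2 (Pkp2), which links desmosomal cadherins to desmoplakin, read 3882, 4182 and 4931 on Scap_ko arrays 1 to 3, against 3264, 3355 and 3404 on Scap_control arrays 1 to 3. Desmoplakin (Dsp), which ties keratin filaments to the desmosome, read 10609, 10646 and 11975 on Scap_ko arrays 1 to 3, against 9968, 8856 and 9400 on Scap_control arrays 1 to 3. For both genes every Scap_ko array was above every control array, and neither passed over all genes (adjusted p = 0.739 for Pkp2 and 0.831 for Dsp). Groups did not overlap with Scap_ko higher in 3 of the 14, where 6.11% of all genes tested did so; Plectin (Plec), a filament linker, was the other one. Plakophilin 3 (Pkp3) stood at the opposite side, with a log2 difference of -0.24 (SE 0.11, adjusted p = 0.849).

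Of the other cytoplasmic intermediate filament genes, 4 of 13 were tested and 0 called, with a median log2 difference of -0.08 (-0.24 without Scap_control replicate 2, -0.13 without Scap_ko replicate 3 and -0.03 without Scap_control replicate 3). Synemin (Synm), a filament protein of muscle and mesenchyme, read 1114, 1054 and 912 on Scap_ko arrays 1 to 3, against 1177, 2305 and 2083 on Scap_control arrays 1 to 3 (log2 difference -0.80, adjusted p = 0.739). The groups did not overlap, although Scap_control array 1 came close to the Scap_ko arrays. Synm was the 1 gene of the 4 without overlap, where 5.72% of all genes tested did not overlap with Scap_ko lower. Vimentin (Vim), the mesenchymal filament protein, stood at a log2 difference of -0.08 and nestin (Nes) at 0.05, both with overlapping groups.

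Injured lung epithelium is known to pass through a Krt8-high transitional state, and genes that mark it besides keratins were set beside Krt8. Of 11 with a probe set 9 were tested and 0 called, with 7 positive differences and a median log2 difference of 0.08, which was 0.14 without Scap_ko replicate 1, 0.22 without Scap_ko replicate 2, 0.16 without Scap_control replicate 1 and 0.20 without Scap_control replicate 3. Cldn4, a tight junction claudin, read 1382, 1057 and 1222 on Scap_ko arrays 1 to 3, against 931, 872 and 876 on Scap_control arrays 1 to 3 (log2 difference 0.44, SE 0.12, adjusted p = 0.731). The cell cycle inhibitor Cdkn1a read 3241, 4151 and 5015 on Scap_ko arrays, against 2616, 2465 and 2975 on Scap_control arrays 1 to 3 (log2 difference 0.60, adjusted p = 0.731). Anxa1, annexin A1, was the other of the 3 genes without overlap and higher in Scap_ko, beside 6.11% of all genes tested (log2 difference 0.47, adjusted p = 0.793). The Anxa1 groups nearly touched, at 24198 on Scap_ko array 1 and 24160 on Scap_control array 3. Krt8 itself did not separate the groups, and Sfn, a marker shared by transitional and basal cells, was dim. The list was chosen with an earlier value of Cldn4 known.

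The label of basal-cell keratins was checked against other genes of airway basal cells. Trp63, the transcription factor that defines them, was dim in all 4 of its probe sets, and its brightest read 158.5, 107.4 and 91.0 on Scap_ko arrays 1 to 3, against 155.5, 100.2 and 75.4 on Scap_control arrays 1 to 3. Of the 12 basal-cell genes, 7 were dim, among them Ngfr, Dapl1, Aqp3 and Itgb4. The 5 above the limit were Icam1, Perp, Snai2, Dlk2 and Col17a1, with 3 positive and 2 negative differences and 0 called. Icam1, an adhesion molecule also found on alveolar type I cells, read 13592, 15409 and 13813 on Scap_ko arrays 1 to 3, against 11782, 11201 and 10684 on Scap_control arrays 1 to 3. Its groups did not overlap (log2 difference 0.35, adjusted p = 0.731), nor did those of Perp, a desmosomal protein, at 85.3% of control (adjusted p = 0.849). Over all genes tested, groups did not overlap in 6.11% with Scap_ko higher and in 5.72% with Scap_ko lower. The summed signal of the list ran from 34880 to 39959 on Scap_ko arrays and from 32369 to 34908 on Scap_control arrays, and most of it was Icam1 and Snai2, which alveolar and mesenchymal cells also express. Krt15 signal was thus measured on arrays where the defining basal-cell genes were dim, and which cells gave it was not tested.

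**Figure D4:**
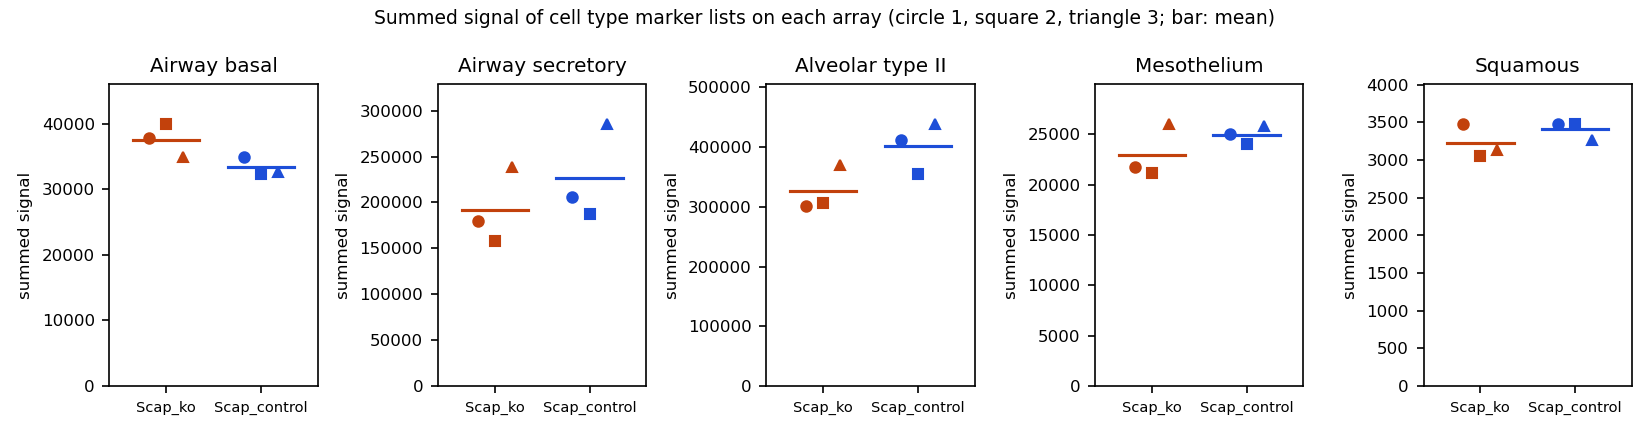
Summed signal of 5 cell type marker lists (vertical axes from 0, linear signal units) on the 3 Scap_ko (left, orange) and 3 Scap_control arrays (right, blue); symbols give the array number and bars the group means. The airway secretory sum is highest on array 3 of each group, and the alveolar type II sum overlaps between groups only through Scap_ko array 3 and Scap_control array 2.

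Markers of other cells that hold keratins moved as follows beside these results, and their part in the keratin values was not tested. Airway secretory genes had negative differences in all 10 tested, with a median log2 difference of -0.36 and sums of 157845 to 238196 on Scap_ko arrays against 187135 to 285644 on Scap_control arrays. Alveolar type II genes had 7 of 9 negative, a median of -0.16 and sums of 301840 to 370839 against 354276 to 439087 on Scap_control arrays. Of these 9, 4 had a limma unadjusted p under 0.05 with Scap_ko lower and 0 with Scap_ko higher. Over all 10972 genes tested, 334 were lower at that level. Lyz2 had the smallest p, at 57.7% of control (limma adjusted p = 0.671). Groups did not overlap with Scap_ko lower in 2 of the 9, beside 5.72% of all genes tested. Alveolar type I genes had 5 of 10 negative and sums of 305689 to 330364 against 296266 to 335726 on Scap_control arrays, and the 15 general epithelial genes had 12 positive, a median of 0.10 and sums of 89780 to 96654 against 86960 to 88346. In that general list Cldn7 had a log2 difference of 0.21 and Epcam, an epithelial adhesion molecule, one of -0.37 (adjusted p = 0.801). The secretory median was -0.17 without Scap_ko replicate 2 and -0.19 without Scap_control replicate 3. The type II median was -0.36 without Scap_ko replicate 3, -0.30 without Scap_control replicate 2 and -0.28 without Scap_control replicate 3. Scap_ko array 3, where Krt15 was lowest, had the highest secretory and type II sums of its group. Scap_control array 3 likewise had the highest of its group, 285644 and 439087, while its Krt15 signal was 1589.

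Genes of thymus and of squamous epithelium, tissues outside the lung, were mostly dim, and the brightness limit does not mark background. The part of these tissues in the keratin values was not tested. All 10 thymus genes were dim, with sums of 1582 to 1958 on Scap_ko and 1797 to 2485 on Scap_control arrays. Of 14 squamous genes of oesophagus or skin 13 were dim, including Krt4, Krt13 and Krt1, with sums of 3051 to 3473 on Scap_ko and 3262 to 3479 on Scap_control arrays. Mesothelial genes, whose cells carry simple keratins, had 5 of 6 negative and sums of 21114 to 26046 on Scap_ko and 23994 to 25786 on Scap_control arrays. Their median log2 difference of -0.11 turned to 0.11 without Scap_ko replicate 2 and to 0.02 without Scap_control replicate 3, and was -0.26 without Scap_ko replicate 3 and -0.19 without Scap_control replicate 2. Ciliated cell genes had 5 of 7 negative and sums of 17945 to 20109 on Scap_ko and 19886 to 20944 on Scap_control arrays, and airway cartilage genes had 8 of 10 dim and sums of 2660 to 3886 against 3380 to 3984 on Scap_control arrays. None of the genes tested in these lists was called.

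The genes whose log2 signal over the 6 arrays was most like that of Krt15 were Adgrl3, Dll4, Rpl35, Gpr182, Dmac1 and Stox2, with Pearson r from 0.976 to 0.995. All 6 were lowest on Scap_ko array 3, so the likeness rests largely on that array. Adgrl3, an adhesion receptor, read 722, 703 and 398 on Scap_ko arrays 1 to 3, against 812, 813 and 756 on Scap_control arrays 1 to 3. Dll4, a Notch ligand of endothelium, read 1674, 1678 and 1362 on Scap_ko arrays, against 1797, 1774 and 1820 on Scap_control arrays 1 to 3. The highest array read 2.04 times the lowest for Adgrl3 and 1.34 times for Dll4.

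For Krt5 the most alike genes were Ppp4r4, Ccdc153, Dmkn and Aldh3b2, with r from 0.985 to 0.994 over the 6 arrays. Groups overlapped for Ppp4r4, at 85.9% of control, and for Ccdc153, at 69.3%, and not for Dmkn and Aldh3b2. Dmkn, dermokine, a secreted protein of stratified epithelia, read 1249, 872 and 1569 on Scap_ko arrays 1 to 3, against 2165, 1793 and 2196 on Scap_control arrays 1 to 3. Only genes at or above the brightness limit were searched, so Dmkn had to lie above it, unlike the dim Krt5. The Dmkn groups did not overlap (58.5% of control). Dmkn was picked for its likeness to Krt5, so nothing is read from that separation. Aldh3b2, an aldehyde dehydrogenase, had 460, 337 and 515 on Scap_ko arrays 1 to 3, against 622, 529 and 591 on Scap_control arrays 1 to 3. For Krt8 they were Rfc2, Zdhhc2, Ints13 and Bop1, with r from 0.985 to 0.992, each with overlapping groups. These genes were picked as the highest of 10972 correlations on 6 arrays and are a description.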

How the data were processed

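Whole-lung RNA from 3 Scap_ko and 3 Scap_control samples was hybridised to the arrays; groups and numbers were read from the titles, per the labels. The authors deposited 1 table of linear intensity values for 45101 probe sets. The submitters' processing notes name RMA with no version, yet the values are linear and every array has a mean of 1500 once 2% is trimmed at either end. The scale is thus read from the values, and no background step is recorded in the labels. No gene-wise centring was seen, and a single channel has no ratio direction.

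Log2 signals were fitted by group alone (limma 3.58.1, R 4.3.3) with Benjamini-Hochberg adjustment. The 64 control probe sets were left out. For each of 18193 genes the probe set of highest geometric mean was used, and the 10972 genes at or above the limit were tested. A second fit took all 34945 singly named probe sets. All 8 keratins matched their Entrez IDs in the RefSeq table.

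The keratins, the 13 gene lists and the rule for named genes were chosen with earlier results of these data known. The rule names the keratins, the other keratins and list genes of smallest p, Trp63, Scap and the genes most alike to Krt15, Krt5 and Krt8. Only the group fit was tried on simulated data, with noise independent between arrays, and the check made was on the bias of the differences.

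Deviations from the group means correlated at 0.17, 0.20 and 0.43 between the Scap_ko and Scap_control arrays numbered 1, 2 and 3. What a number stands for is unstated. The main fit and its p-values leave the numbers out, and only the replicate block treats them as pairs. The number of arrays limits the precision. Alternatives were other scalings, added signal, other filters, all probe sets of a gene averaged, an intensity trend, the replicate block and arrays left out.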

Additional observations from a re-analysis of the deposited data

How the results depend on the processing

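Under the 16 alternatives, 0 of the testable keratins other than Krt15 were called in every case, with 7 testable when the brightness filter was dropped, and under the 13 that apply 0 of their 12 probe sets were called. Krt15 was chosen for its variation on these same arrays, so nothing is read from its sign, which was negative under all 16. The filters, averaging over its single probe set, the intensity trend and the replicate block cannot change its difference. Its log2 difference ran from -2.62 without Scap_ko replicate 1 to -0.72 without Scap_ko replicate 3, and was -0.73 without both arrays numbered 3. Krt5 ranged from -0.80 without Scap_ko replicate 3 to -0.40 without Scap_ko replicate 2, Krt7 from 0.01 to 0.14, Krt8 from 0.01 to 0.08, Krt18 from 0.06 to 0.23 and Krt14 from -1.55 to -0.41.

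The dim Krt17, at -0.03, turned to 0.14 with quantile normalization and 0.59 without both arrays numbered 3, and ranged from -0.92 to 0.70 as single arrays were left out; the cause was not tested. Krt19, at 0.04, ranged from -0.017 (without Scap_control replicate 3) to 0.11 as single arrays were left out; the cause was not tested. The single gene called of all genes became 0 with no filter, with the filter at the 75th percentile, with probe sets averaged, with the intensity trend, with the replicate block and without both arrays numbered 3, and 0 to 1 as single arrays were left out. With the replicate block Krt5 had an unadjusted p of 0.0296 (limma adjusted p = 0.800), against 0.0519 without it, and the block changed no keratin call. Signal over background limits Krt5, Krt14 and Krt17, whose dim values may hold differences that these arrays cannot show.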
